A study of Homo sapiens with 38 samples.

Results

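T47D-TR is an established human breast cancer cell line, and MS8815 is a compound of the PROTAC class directed at the histone methyltransferase EZH2. Polyadenylated RNA was sequenced from 2 libraries of T47D-TR cells given 2.5 uM MS8815 and from 2 libraries of the same line given 0.05% DMSO, the vehicle, each after 30 h. These are 4 of the 38 libraries of the series, chosen by their treatment labels, and they share 1 deposited table of 16201 genes. Beside them stand 2 libraries with 2.5 uM MS8815-N, the negative control of MS8815, and 2 with 2.5 uM EPZ-6438, an inhibitor of EZH2 methyltransferase activity, both at the same time point. All cells were grown in serum-containing RPMI medium with insulin. The labels carry replicate numbers 1 and 2 for each compound and 3 and 4 for DMSO. They do not say whether replicates were separate cultures, so p-values measure only the spread between these libraries, which may be technical.

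EZH2 is the enzyme of Polycomb repressive complex 2 (PRC2), which places methyl groups on lysine 27 of histone H3 and holds developmental genes silent. A PROTAC binds its target at one end and an E3 ubiquitin ligase at the other, so that the target is tagged with ubiquitin and destroyed by the proteasome. FOXM1, named with EZH2 in the title of the series, is a transcription factor that drives the genes of G2 phase and mitosis. The question of the comparison is which transcripts differ between cells given the degrader and cells given its vehicle.

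Levels are given as normalized counts, obtained by undoing the transform of the deposited values, and folds are ratios of group means on that scale. Differences are given on the deposited log2 scale, which compresses weakly expressed genes. They are relative to all other transcripts of a library, because the values were scaled between libraries. Total normalized counts were 8.91 and 8.64 M in the DMSO libraries and 13.4 and 9.85 M in MS8815 replicates 1 and 2. The pair of MS8815 libraries was less alike (Pearson correlation across genes 0.948) than the pair of DMSO libraries (0.993). MS8815 replicate 1 held 1664192 normalized counts of HSP90AA1, 12.4% of its total, against 165380 in replicate 2 and 26514 and 26318 with DMSO. Defining markers of luminal epithelium were present in all 4 libraries, with sums over 12 markers of 228162 and 211569 with DMSO and 152044 and 135083 with MS8815. Summed markers of fibroblasts (9 of 12 in the table) lay between 124 and 187, of leukocytes (2 of 12) between 15 and 29, and of endothelium (1 of 8) between 0 and 5.

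Tested were 13456 genes that reached 10 normalized counts in 2 or more of the 4 libraries, of which 676 (5.02%) passed an adjusted p of 0.05 by limma. Of these 367 (2.73%) were higher with MS8815 and 309 (2.30%) were lower. Both MS8815 libraries lay above both DMSO libraries for 30.2% of tested genes and below both for 31.7%. Counts within the gene lists below are to be read against these shares. With only 2 libraries a group the number of calls moved with each library. It fell to 22 without DMSO replicate 3 and to 9 without DMSO replicate 4, and rose to 5762 without MS8815 replicate 1 and 7400 without MS8815 replicate 2, where the spread came from the other pair alone. Without either DMSO library no gene of the heat shock, proteasome, FOXM1 and G2/M, S phase or estrogen lists below was called, although their medians kept their sign. HSPA6, which is not in the heat shock list, was called in both of these fits. In a fit with the 4 libraries of the other compounds 104 genes were called, 90 of them higher, among them 7 heat shock genes but 3 of the G2/M genes and 0 proteasome subunits. Genes called without DMSO replicate 4 were all higher and all among the 676. They were EPGN, GDF15, HMOX1, HSPA6, IL6R, MAP1B, SDCBP2, SLC7A11 and SPX. Among them EPGN and HSPA6 had under 10 normalized counts in both DMSO libraries. These genes passed the filter only through MS8815 and could only be called higher. Limma voom, which changes the scaling, the log scale and the weights together, moved the median of all genes by -0.41 and the share of higher genes among the calls from 54.3% to 36.1%.

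**Figure D1:**
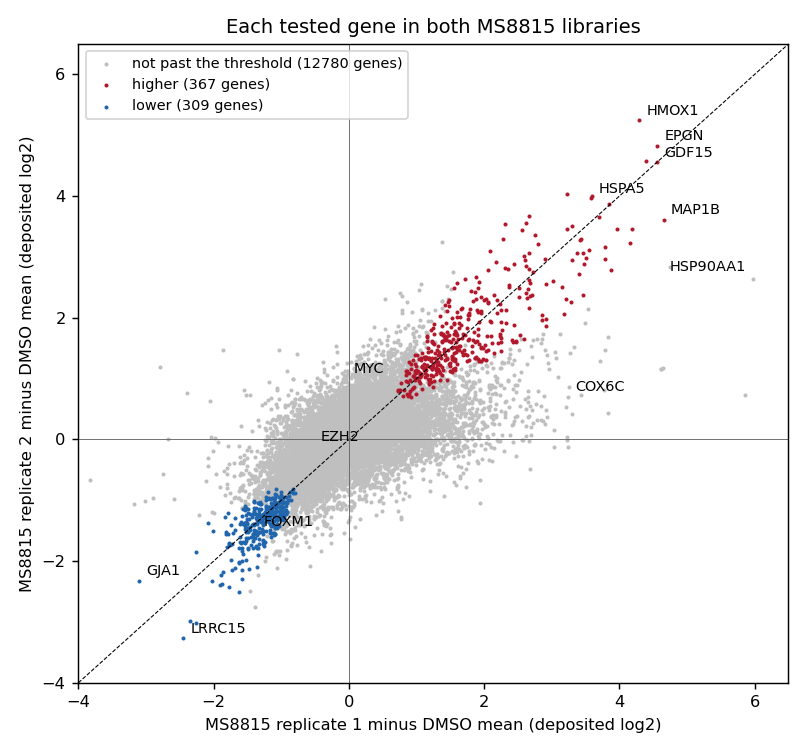
Each point is 1 of the 13456 tested genes, with its difference from the DMSO mean (deposited log2) in MS8815 replicate 1 on the x axis and in replicate 2 on the y axis. The 367 higher genes (red) and 309 lower genes (blue) lie near the dashed line of equal difference, while HSP90AA1 and COX6C lie far below it, with higher values in replicate 1.

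The largest rises past the test with MS8815 included HMOX1 and GDF15. HMOX1, which encodes the haem-degrading enzyme heme oxygenase 1 (chromosome 22, 35380361 to 35394214, hg38), had 86.7 and 101 normalized counts with DMSO and 3291 and 6500 with MS8815. Its level was 52.1-fold higher, a difference of 4.77 ± 0.36 (SE) log2 units (limma adjusted p = 0.0234). GDF15, a secreted stress cytokine of the TGF-beta superfamily (chromosome 19, 18374731 to 18389176), went from 77.8 and 86.3 to 3688 and 3678, 44.9-fold higher (4.56 ± 0.17, limma adjusted p = 0.0137). Replicates of either group differed by far less than the groups did for both genes.

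HSPA6, a heat-inducible HSP70 chaperone nearly silent without stress, had 9.30 and 9.20 normalized counts with DMSO and 1413 and 1611 with MS8815. EPGN, a ligand of the EGF receptor, had 3.74 and 0.529 with DMSO and 1223 and 1487 with MS8815. MAP1B, a microtubule-associated protein best known from neurons, had 4.90 and 10.1 with DMSO and 1616 and 742 with MS8815. These 3 genes were close to the lower end of the scale without the compound, so no fold is given. HSPA6 and EPGN passed the filter only through MS8815, so they could only be called higher.

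SLC7A11, the cystine importer that feeds glutathione synthesis, stood at 127 and 156 with DMSO and at 3127 and 3151 with MS8815 (22.2-fold higher). GPX3, a secreted glutathione peroxidase, stood at 214 and 231 and then at 4715 and 3300. SAT1, the rate-limiting enzyme of polyamine breakdown, stood at 482 and 437 and then at 9681 and 5057. SH3BGR rose 26.3-fold, from 104 and 74.9 to 2944 and 1754. HSPA1A, HSPA5 and DDIT3 complete the 12 largest rises among genes that passed the test and are described with their groups. The rule that named these 12 genes required both MS8815 libraries above both DMSO libraries. Their limma adjusted p-values ran from 0.0137 to 0.0332.

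The largest falls past the test included LRRC15, GJA1 and PDZK1. LRRC15, a leucine-rich repeat membrane protein, had 1070 and 1288 normalized counts with DMSO and 149 and 56.1 with MS8815, 11.5-fold lower (-2.86 ± 0.32, limma adjusted p = 0.0355). GJA1, the gap junction protein connexin 43, had 1171 and 1256 with DMSO and 74.4 and 177 with MS8815 (9.65-fold lower). PDZK1, a scaffold protein induced by estrogen in breast cells, had 897 and 948 with DMSO and 117 and 52.2 with MS8815 (10.9-fold lower). Both treated libraries lay several-fold under the DMSO range, and lying under it was a condition for naming these genes.

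SERPINA6, corticosteroid-binding globulin, had 1642 and 1630 with DMSO and 276 and 131 with MS8815. IGFBP5, a secreted binding protein of insulin-like growth factors, had 18443 and 21553 with DMSO and 5756 and 3617 with MS8815. These transcripts were 8.06-fold and 4.27-fold lower. TFRC, the transferrin receptor that imports iron, was 4.09-fold lower, with 21763 and 23125 normalized counts against 6102 and 4861. PGLYRP2, OLFML3, CLIC3, EFHD1 and SFXN2 fell by between 4.56-fold (EFHD1) and 7.70-fold (PGLYRP2). Limma adjusted p-values of these 11 falls ran from 0.0337 to 0.0478.

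**Figure D2:**
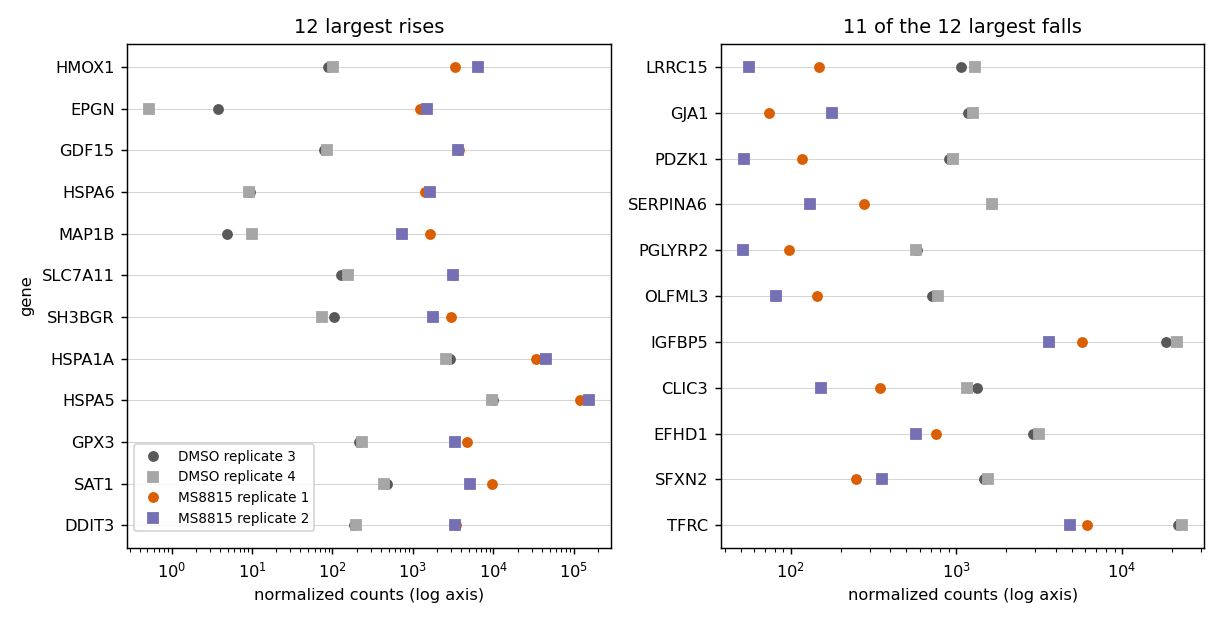
Normalized counts on a log axis of the 12 largest rises (left) and 11 of the 12 largest falls (right) in each of the 4 libraries, 1 symbol per library. Both MS8815 libraries lie outside the range of both DMSO libraries in these 23 genes, as the rule that named them required.

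Several cytosolic chaperones of the heat shock response rose. Heat shock proteins bind unfolded proteins, and heat shock factor 1 switches their genes on when misfolded protein builds up. Of 20 listed genes tested, 7 were higher, none was lower and 13 did not pass the test, beside 2.73% of all genes higher. Both MS8815 libraries exceeded both DMSO libraries in 19 of the 20, beside 30.2% of all tested genes. The median difference was 1.44 log2 units, beside 0.002 over all tested genes. The median was 1.39 in replicate 1 and 1.61 in replicate 2.

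HSPA1A, the main stress-inducible HSP70 (chromosome 6, 31815464 to 31817946), had 2898 and 2612 normalized counts with DMSO and 34266 and 45575 with MS8815. It was 14.5-fold higher (3.80 ± 0.26, limma adjusted p = 0.0222). Its near-identical neighbour HSPA1B went from 1345 and 1211 to 8599 and 17312, and how reads were divided between these copies is uncertain. HSPH1, an HSP110 nucleotide exchange factor, had 699 and 603 with DMSO and 7593 and 6052 with MS8815 (10.5-fold higher). HSPB8, a small heat shock protein that works with BAG3 in clearing aggregates, was 9.38-fold higher, with 588 and 566 against 3209 and 7614. HSP90AA1 itself did not pass the test (4.31 ± 1.12, limma adjusted p = 0.0906), and its treated values lay far apart. Pseudogenes near identical to HSP90AA1 add to the uncertainty of its count.

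Promoter letters of 2 heat shock genes are shown because these genes went up and hold the motif that heat shock factors bind. The sequences are those of RefSeq on GRCh38.p14, on the strand of the gene, from 100 to 41 bases before the start of HSPA6 (chr1:161524440-161524499, plus strand) and from 90 to 31 bases before the start of HSPA8 (chr11:123062167-123062226, minus strand). Capitals mark the heat shock element, searched on both strands as TTC, any 2 bases, GAA, any 2 bases and TTC.
HSPA6: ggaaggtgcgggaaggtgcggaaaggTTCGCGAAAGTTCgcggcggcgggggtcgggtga
HSPA8: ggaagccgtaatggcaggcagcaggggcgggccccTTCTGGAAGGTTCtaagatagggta
HSPA8, the constitutive HSP70 and an example chosen after its values were seen, rose 4.04-fold from 25650 and 22063 to 102229 and 90551. In windows from 250 bases before to 50 after the start, the element occurred in 4 of 19 heat shock genes (21.1%), beside 0.322% of the 9638 tested genes with a promoter sequence and 0.487% of 27305 promoters. Among the called genes of the list only HSPA8 held an exact match to this pattern in the window, while HSPA1A, HSPA1B and HSPH1 did not. Looser forms of the element were not searched, so these genes are not shown to lack one. HSPA6 is not in that list. A match in letters is a description and does not show that a factor was bound.

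Of 31 proteasome subunit genes 4 were higher, none was lower and 27 did not pass the test, beside 2.73% of all genes higher. The proteasome is a barrel of alpha and beta subunits with regulatory caps, and it degrades proteins tagged with ubiquitin, including those tagged by way of a PROTAC. All 31 subunit genes had both MS8815 libraries above both DMSO libraries, beside 30.2% of all tested genes, and their median difference was 1.40. PSMD11, a lid subunit of the cap, had 1498 and 1478 normalized counts with DMSO and 7173 and 4650 with MS8815 (3.97-fold higher, limma adjusted p = 0.0415). PSMD13, also of the lid, had 1340 and 1237 and then 5593 and 4366 (3.86-fold higher). PSMD6 was 3.06-fold higher and PSMB4, a core subunit, 2.97-fold higher.

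Medians of the subunits were 1.63 in replicate 1 and 1.23 in replicate 2. Proteasome genes also stood above DMSO in some libraries of the other compounds, as given below with those libraries. Ligase genes of the cullin complexes that PROTACs can recruit did not pass the test in either direction (0 of 14). VHL, the substrate receptor of the cullin 2 ligase, had 368 and 363 with DMSO and 943 and 741 with MS8815 (limma adjusted p = 0.0561). CRBN, the substrate receptor of the cullin 4 ligase, had 569 and 566 with DMSO and 1240 and 1011 with MS8815 (limma adjusted p = 0.0685).

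Genes of the unfolded protein response and of ATF4 rose in part. ATF4 is translated when ribosome initiation is slowed under stress and induces amino acid transport and the pro-apoptotic factor CHOP, encoded by DDIT3. The sensors of the endoplasmic reticulum add chaperones such as BiP, encoded by HSPA5. Of 44 listed genes tested, 16 were higher, none was lower and 28 did not pass, beside 2.73% of all genes higher. The median difference was 1.04 (0.80 in replicate 1, 1.15 in replicate 2). DDIT3 had 186 and 196 normalized counts with DMSO and 3471 and 3365 with MS8815, 17.9-fold higher (3.68 ± 0.18, limma adjusted p = 0.0137). HSPA5 had 9937 and 9593 with DMSO and 118120 and 153884 with MS8815, 13.9-fold higher (3.78 ± 0.27, limma adjusted p = 0.0232). In both genes the treated libraries were close to each other and far above the vehicle libraries. With SLC7A11 and GDF15, described above, these are the 4 members with the largest differences.

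Promoters of 2 endoplasmic reticulum chaperone genes that rose are shown for the endoplasmic reticulum stress element, the site of ATF6 with NF-Y. They run from 90 to 31 bases before the start of HSPA5 (chr9:125241374-125241433, minus strand) and from 100 to 41 bases before the start of CRELD2 (chr22:49918534-49918593, plus strand). Capitals mark the element, searched on both strands as CCAAT, any 9 bases and CCACG, so that it contains the shorter CCAAT box.
HSPA5: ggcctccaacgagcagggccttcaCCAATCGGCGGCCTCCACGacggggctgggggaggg
CRELD2: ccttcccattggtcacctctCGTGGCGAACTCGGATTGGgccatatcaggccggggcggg
In CRELD2, chosen after its values were seen, the element lies on the opposite strand. The gene rose 4.38-fold, from 321 and 264 to 1323 and 1235. The element occurred in 6 of 39 promoters of the list (15.4%), beside 0.145% of tested genes.

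Of 23 antioxidant and aryl hydrocarbon receptor target genes tested, 11 were higher and none was lower, beside 2.73% of all genes higher. NRF2 is a transcription factor released from KEAP1 by electrophiles and oxidants, and the aryl hydrocarbon receptor, whose targets were listed with it, induces CYP1A1. Their median difference was 1.29 (1.35 and 1.22 in replicates 1 and 2). HMOX1 led the list. FTL, the light chain of ferritin, had 1712 and 1618 normalized counts with DMSO and 20410 and 15096 with MS8815 (10.7-fold higher, limma adjusted p = 0.0232), with the reservation that ferritin has pseudogenes. SRXN1, which restores oxidised peroxiredoxins, was 7.42-fold higher, from 1520 and 1401 to 9199 and 12467. OSGIN1, an oxidative stress-induced growth inhibitor, was 8.14-fold higher, from 327 and 321 to 2421 and 2854. The antioxidant response element TGACNNNGC was found in 3 of 17 promoters of the list (17.6%) and in 15.3% of tested genes, shares that are close. HMOX1 had no promoter sequence and was not searched.

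FOXM1 and a large share of the genes of G2 phase and mitosis fell. FOXM1 (chromosome 12, 2857681 to 2877155) had 726 and 801 normalized counts with DMSO and 245 and 215 with MS8815. It was 3.32-fold lower (-1.44 ± 0.18, limma adjusted p = 0.0358), and the higher treated library was under the lower vehicle library. Of 47 genes of the FOXM1 and G2/M list, 20 were lower, none was higher and 27 did not pass, beside 2.30% of all genes lower. Both MS8815 libraries were below both DMSO libraries in 40 of the 47, beside 31.7% of tested genes. The median difference was -1.06, with -0.95 in replicate 1 and -1.30 in replicate 2.

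KIF20A, a kinesin of cytokinesis, had 566 and 575 normalized counts with DMSO and 139 and 59.0 with MS8815 (5.76-fold lower). CCNA2, cyclin A2 of S and G2 phase, had 1227 and 1143 and then 326 and 231 (4.25-fold lower). PLK1, the kinase that drives mitotic entry and spindle assembly, had 1674 and 1712 and then 494 and 465 (3.53-fold lower, limma adjusted p = 0.0343). CDC20, the activator of the anaphase-promoting complex, had 1664 and 1651 and then 488 and 452 (3.53-fold lower). None of the 4 overlapped between groups, beside 31.7% of all tested genes with both MS8815 libraries below both DMSO libraries. They were named as called members with the largest differences, so the lack of overlap is only a description. These bulk values cannot tell fewer cells that carry a transcript from less of it in each cell.

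Promoters of 4 genes that fell are shown for the cell cycle homology region, TTTGAA, the site through which the DREAM and MuvB complexes act on mitotic genes. Windows end 31 bases before the start for CDC20 (chr1:43358891-43358950) and 1 base before it for PLK1 (chr16:23678829-23678888), CCNB2 (chr15:59105086-59105145) and GTSE1 (chr22:46296810-46296869), all on the plus strand. Capitals mark the motif, which in GTSE1 lies on the opposite strand.
CDC20: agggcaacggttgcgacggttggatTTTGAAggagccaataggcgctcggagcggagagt
PLK1: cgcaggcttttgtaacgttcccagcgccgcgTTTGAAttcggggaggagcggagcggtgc
CCNB2: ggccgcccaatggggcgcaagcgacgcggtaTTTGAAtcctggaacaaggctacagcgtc
GTSE1: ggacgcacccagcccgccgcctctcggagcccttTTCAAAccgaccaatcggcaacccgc
CCNB2 (cyclin B2) and GTSE1 (a microtubule-binding regulator of G2) were chosen after their values were seen and were 2.81-fold and 3.11-fold lower. The motif occurred in 26 of 41 promoters of the list (63.4%), in 9.38% of tested genes and in 1 of 41 promoters of the S phase list (2.44%).

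Fewer genes of DNA replication and of E2F passed the test. Of 48 tested, 8 were lower, none was higher and 36 had both treated libraries below both vehicle libraries, with a median of -0.69 (-0.62 and -0.82 in replicates 1 and 2). Over all tested genes 2.30% were lower and 31.7% had both libraries below. RRM2, a subunit of the enzyme that makes deoxynucleotides, had 3731 and 3531 normalized counts with DMSO and 975 and 1009 with MS8815 (3.66-fold lower, limma adjusted p = 0.0343). TK1, thymidine kinase 1, was 3.46-fold lower, with 3448 and 3301 against 1035 and 915. CCNE2, cyclin E2, was 4.12-fold lower and GINS2, of the replicative helicase, 2.92-fold lower. The E2F motif TTTCCCGC was found in 10 of 41 promoters of this list (24.4%), beside 2.68% of tested genes. Among the called genes it was found in MCM3 and GINS2 only, and RRM2 did not hold it. The promoter of CCNE2 was not searched, because chromosome 8 was left out.

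CDKN1A, which encodes the CDK inhibitor p21, rose 2.79-fold, from 903 and 837 normalized counts to 2276 and 2571 (limma adjusted p = 0.0406). CDKN2C, the CDK4 and CDK6 inhibitor p18, fell 3.87-fold, from 395 and 357 to 111 and 83.7. They were the only calls among 16 genes of CDK inhibitors and G1 cyclins. Of 29 p53 targets, 3 were higher and none was lower, with a median of 0.13. Besides CDKN1A these were GADD45A, a growth arrest gene that went from 79.4 and 63.5 to 1519 and 1371 (20.2-fold higher), and SESN2, a stress-induced inhibitor of mTORC1 that was 3.48-fold higher. GADD45A and SESN2 are also known as ATF4 targets. MYC had 878 and 829 with DMSO and 828 and 1797 with MS8815, so that its groups overlapped. In 38 genes of MYC and ribosome biogenesis, 1 was higher, RRP12 of ribosome assembly (3.37-fold), beside 2.73% of all genes, and the median was 0.03.

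**Figure D3:**
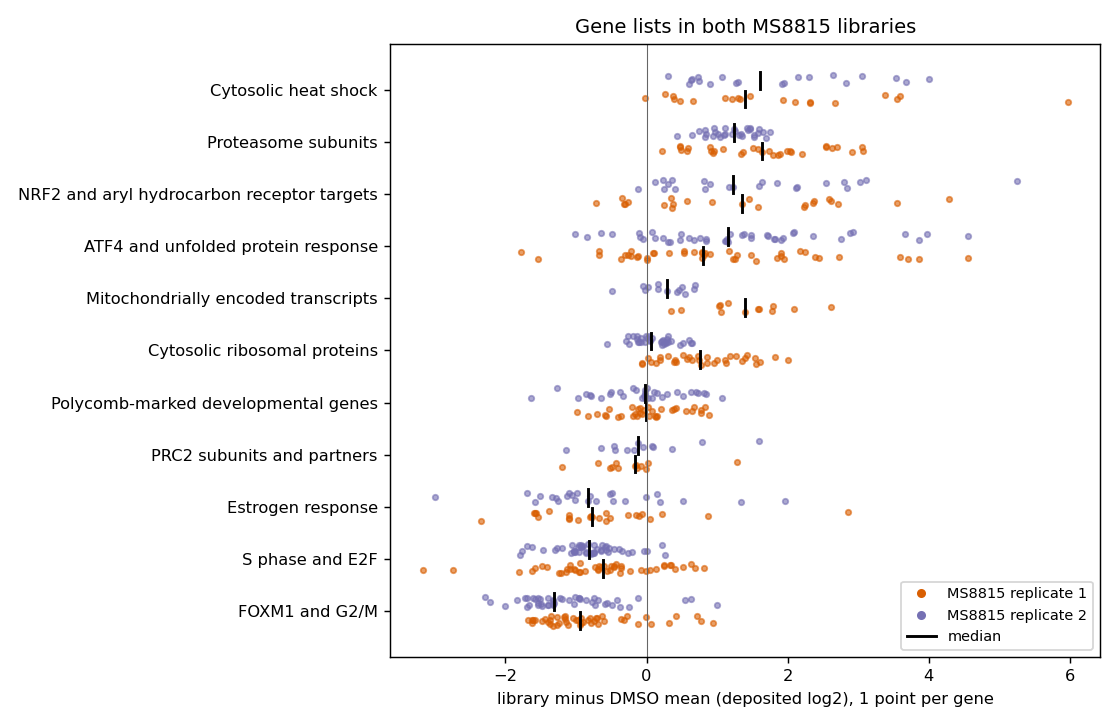
Each point is a tested gene of the named list and its difference from the DMSO mean (deposited log2) in MS8815 replicate 1 (orange) or 2 (violet), and black bars are medians. Stress and proteasome lists lie to the right and cell cycle and estrogen lists to the left in both libraries, while ribosomal protein and mitochondrially encoded transcripts were higher mainly in replicate 1.

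Transcripts of PRC2 itself did not pass the test. EZH2 (chromosome 7, 148807383 to 148884321) had 154 and 180 normalized counts with DMSO and 94.8 and 147 with MS8815, a difference of -0.32 ± 0.21 (limma adjusted p = 0.362). SUZ12, the scaffold subunit, had 988 and 999 with DMSO and 716 and 872 with MS8815 (limma adjusted p = 0.359). EED, which binds the methylated histone, had 90.9 and 56.1 with DMSO and 40.4 and 81.7 with MS8815, and EZH1, the paralogous methyltransferase, had 123 and 167 with DMSO and 121 and 207 with MS8815. The groups overlapped for EED and EZH1. For EZH2 and SUZ12 both MS8815 libraries lay below both DMSO libraries, as they did for 31.7% of all tested genes. None of 13 PRC2 genes was called, and the members with the largest differences were the accessory factors PHF1 (217 and 115, then 503 and 648) and PHF19 (482 and 379, then 236 and 151). A transcript level says nothing on the amount of EZH2 protein, the target of the degrader.

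Among genes that Polycomb is known to mark no change passed the test at 30 h. Of 34 tested developmental genes none was called in either direction, 9 lay above and 11 below the DMSO range, and the median was -0.03. Over all tested genes 30.2% lay above and 31.7% below it, shares close to those of the list. DLX3, a homeobox factor of skin and placenta, had 311 and 338 normalized counts with DMSO and 127 and 145 with MS8815 (limma adjusted p = 0.0525). WNT11, a Wnt ligand, had 1.62 and 0.916 with DMSO and 18.8 and 40.02 with MS8815 (limma adjusted p = 0.0651). Among 14 HOX genes none was called, with a median of -0.30, and the largest differences were in HOXC4 (125 and 145, then 58.8 and 28.8) and HOXC10 (1307 and 1205, then 772 and 603). Of 26 PRC1 subunits and opposing enzymes, 1 was lower, beside 2.30% of all tested genes. It was PCGF2, a ring finger subunit of PRC1, with 278 and 313 against 122 and 105 (2.61-fold lower). Only 39 of the 86 listed developmental genes were in the table, so most of the list was not measured here.

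Of 25 estrogen-responsive genes 7 were lower, 1 was higher and 17 did not pass, beside 2.30% of all tested genes lower and 2.73% higher. The median was -0.75 (-0.78 and -0.82 in replicates 1 and 2), and 19 lay below the DMSO range, beside 31.7% of all genes. OLFM1, a secreted glycoprotein, had 389 and 380 normalized counts with DMSO and 80.9 and 69.1 with MS8815 (5.13-fold lower, limma adjusted p = 0.0332). RAPGEFL1, a putative exchange factor for Rap, was 3.47-fold lower and PDZK1 10.9-fold lower. AREG, amphiregulin, moved the other way and rose 10.2-fold, from 77.6 and 68.0 to 995 and 495. Luminal transcription factors and keratins had 2 genes lower and 2 higher of 27, with a median of -0.67. SPDEF, an ETS factor of luminal cells, was 2.76-fold lower and ELF5, an ETS factor of the alveolar lineage, 2.27-fold lower. KRT7 was 2.43-fold higher and CLDN4, a tight junction protein, 3.59-fold higher, from 3430 and 3012 to 12336 and 10766. ESR1, the estrogen receptor, had 785 and 838 with DMSO and 612 and 264 with MS8815 (limma adjusted p = 0.207).

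Several ligands of the EGF receptor rose. Beside AREG and EPGN, HBEGF, heparin-binding EGF, went from 23.2 and 17.8 normalized counts to 314 and 285 (14.6-fold higher, limma adjusted p = 0.0232). In the list of EGF, IGF and TGF-beta family signalling, 4 of 26 were higher and 4 lower, IGFBP5 among the latter. Over all tested genes 2.73% were higher and 2.30% lower. Immediate early genes, which growth factors and stress switch on within minutes, had 5 of 24 higher and none lower, with a median of 0.69. KLF6 went from 243 and 240 to 2868 and 1273, DUSP1, a MAP kinase phosphatase, from 75.2 and 65.8 to 421 and 524, and KLF4 from 41.6 and 52.4 to 287 and 342. FOSL1, the AP-1 subunit FRA1, had 0 and 0.800 with DMSO and 57.0 and 103 with MS8815, and passed the filter only through MS8815.

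Some inflammatory and interferon genes rose from low levels. In the NF-kB list 3 of 16 were higher and none lower, beside 2.73% of all tested genes higher. IL32, a cytokine, went from 16.4 and 14.8 normalized counts to 521 and 546 (34.2-fold higher, limma adjusted p = 0.0161). LCN2, lipocalin 2, had 0 and 1.73 with DMSO and 110 and 71.4 with MS8815. CCL20, a chemokine, was listed at 0 in both vehicle libraries and had 16.7 and 12.5 with MS8815. LCN2 and CCL20 passed the filter of 10 counts only through MS8815, so they could only be called higher. Of 32 interferon-stimulated genes, 7 were higher and none lower, with a median of 0.23. IFIT2, which binds viral RNA, went from 31.4 and 15.5 to 527 and 848, and RSAD2, viperin, from 5.96 and 6.996 to 258 and 291. RSAD2 also passed the filter only through MS8815. OASL and ISG20 rose 16.5-fold and 13.6-fold. None of 17 genes of MHC class I presentation was called.

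Lipid synthesis genes were lower in part. Of 25 genes of cholesterol synthesis and uptake, 4 were lower and none higher, with a median of -0.20. Over all tested genes 2.30% were lower and 2.73% higher. Among the 4 lower cholesterol genes was TM7SF2, a sterol reductase (3770 and 3469 normalized counts with DMSO against 1062 and 763 with MS8815). MVK, mevalonate kinase, was another (849 and 815 against 282 and 307). So was DHCR7, which makes cholesterol from 7-dehydrocholesterol (2480 and 2610 against 819 and 1106). Of 26 fatty acid genes 4 were lower and 1 was higher. ACLY, which makes cytosolic acetyl-CoA, was 2.77-fold lower, ELOVL6, a fatty acid elongase, 4.23-fold lower and DGAT2, which makes triglycerides, 4.75-fold lower, while FADS3 was 4.68-fold higher. LDHA, lactate dehydrogenase, fell 2.84-fold, from 10415 and 10143 to 3401 and 3851. ADM, adrenomedullin, rose 5.52-fold in the same hypoxia and glycolysis list of 33 genes, whose median was 0.08.

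Autophagy and lysosome genes had 4 of 36 higher and none lower, with a median of 0.32. SQSTM1, the ubiquitin-binding autophagy receptor p62, went from 3488 and 3493 normalized counts to 21835 and 41927 (9.13-fold higher, limma adjusted p = 0.0358). MAP1LC3B, the autophagosome marker LC3B, was 3.71-fold higher, CTSL, cathepsin L, 5.24-fold higher and GLA, alpha-galactosidase, 5.43-fold higher. In the polyamine and nucleotide list SMOX, spermine oxidase, rose 11.2-fold beside SAT1. Of 29 cell death and BCL2 family genes, 2 were higher, CASP4, an inflammatory caspase (5.05-fold), and XIAP, an inhibitor of caspases (170 and 159 normalized counts, then 513 and 472), beside 2.73% of all genes, and the median was 0.02.

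Several lists differed between the 2 treated libraries and held no call. Cytosolic ribosomal proteins (34 genes) had a median of 0.76 in MS8815 replicate 1 and 0.07 in replicate 2. Nuclear-encoded respiratory chain genes (32) had 0.60 and -0.08, and the 13 mitochondrially encoded transcripts 1.40 and 0.29. COX6C, a cytochrome oxidase subunit, had 1944 and 1579 normalized counts with DMSO and 17314 and 2904 with MS8815 (limma adjusted p = 0.212). RPLP1, a ribosomal stalk protein, had 11698 and 9739 and then 43231 and 12339. Ribosomal protein and respiratory chain genes were also high in 2 libraries of other compounds. On the scale of log2(normalized count + 1), ribosomal proteins had a median of 0.83 in MS8815-N replicate 1 and 0.69 in EPZ-6438 replicate 2, and respiratory chain genes 0.89 and 0.98. Mitochondrially encoded transcripts had 0.41 and -0.32 there. What sets these libraries apart was not tested. On that scale proteasome subunits had 1.65 and 1.27 in the MS8815 libraries, 0.58 in MS8815-N replicate 1, 0.37 in EPZ-6438 replicate 2 and -0.05 in EPZ-6438 replicate 1. HSP90AA1 was also high there, with 55550 in MS8815-N replicate 1 and 101447 in EPZ-6438 replicate 2.

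Some lists had medians nearer 0 in the libraries of the other compounds. Medians of cytosolic heat shock genes were 1.42 and 1.62 with MS8815 and lay between -0.29 and 0.11 in the 4 libraries of the other compounds. FOXM1 and G2/M medians were -1.21 and -1.50 with MS8815 and lay between -0.34 and -0.06 in the others. ATF4 and unfolded protein response medians were 0.98 and 1.31 against -0.21 to 0.19. MS8815-N replicate 2 stood apart, being listed at 0 for 44.3% of the 15648 genes of its table, and its median over all genes was -0.78. Polycomb-marked developmental genes had a median of -3.84 there, against 0.17 to 0.25 in the other 3 libraries of these compounds.

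**Figure D4:**
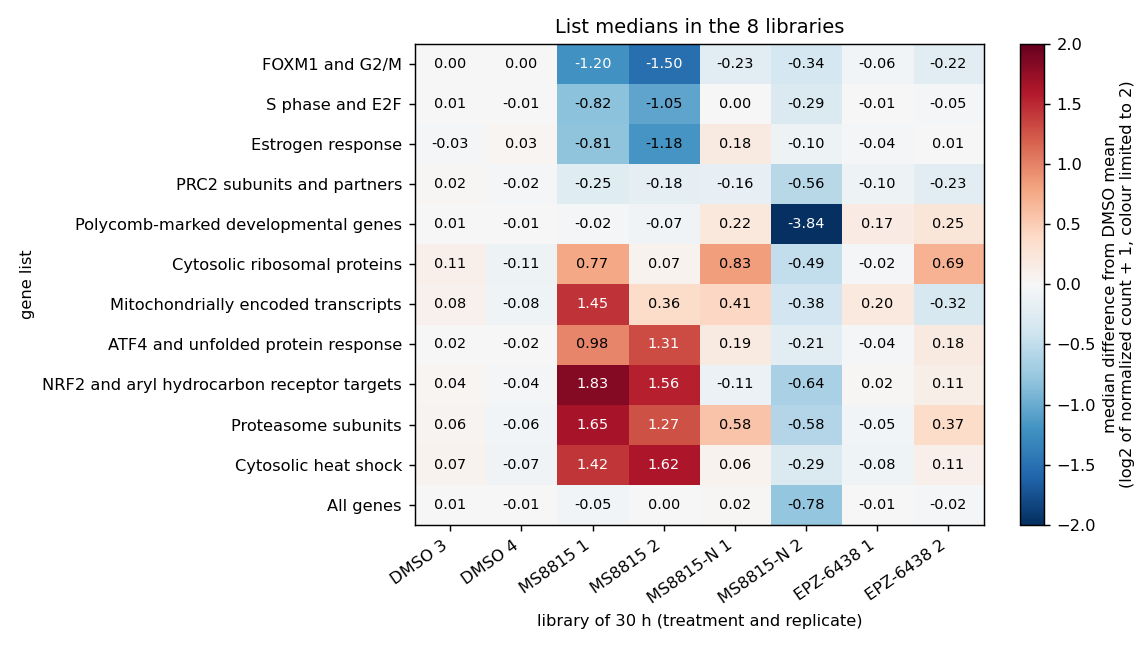
Colour and number give the median difference from the DMSO mean, in log2(normalized count + 1), of each gene list (rows) in each of the 8 libraries of 30 h (columns). Columns of MS8815 show the heat shock, proteasome, antioxidant and ATF4 lists high and the cell cycle and estrogen lists low, and MS8815-N replicate 2 is low in most lists.

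MS8815 was compared with MS8815-N and with EPZ-6438 at the same dose and time in 1 fit over the 8 libraries, with tables brought to 1 scale gene by gene through the DMSO libraries they share. Of 13934 genes, 8 (0.0574%) were higher than with MS8815-N and 0 lower. These were GDF15, SLC7A11, HSPA5, HSPA1A, HSPH1, GPX3, SRXN1 and FAM129A, a gene of the stress-induced niban family. At an unadjusted p under 0.05 there were 1862 genes, and with limma on the 7 libraries without MS8815-N replicate 2 there were 64 higher (0.459%) and 10 lower (0.0718%). Against EPZ-6438, 15 genes (0.108%) were higher and 0 lower, with 1156 at an unadjusted p under 0.05. Without MS8815-N replicate 2, which adds to the shared spread, these became 301 higher (2.16%) and 257 lower (1.84%). Leaving out either library of MS8815 or of EPZ-6438 left 0 calls in both contrasts, and leaving out MS8815-N replicate 1 gave 7764 and 540.

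GDF15 had 187 and 176 normalized counts with MS8815-N and 104 and 196 with EPZ-6438, beside 3688 and 3678 with MS8815. The difference was 4.34 log2 units (95% interval 3.41 to 5.26) from MS8815-N and 4.68 (3.75 to 5.61) from EPZ-6438, with limma adjusted p of 0.023 and 0.0213. HSPA1A had 2993 and 2544 with MS8815-N and 2595 and 3288 with EPZ-6438, against 34266 and 45575. Its differences were 3.84 (3.15 to 4.53) and 3.76 (3.06 to 4.45). HSPA5 had 14383 and 11714 with MS8815-N and 9479 and 13095 with EPZ-6438, against 118120 and 153884. For SLC7A11 the values were 125 and 221 with MS8815-N and 149 and 144 with EPZ-6438. In these 4 genes every library of the other compounds lay far below both MS8815 libraries.

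Cell cycle genes were tested with less certainty. CDC20 had 1727 and 1934 normalized counts with MS8815-N and 1624 and 1529 with EPZ-6438, against 488 and 452 with MS8815. Its difference from EPZ-6438 was -1.75 (95% interval -2.36 to -1.14, limma adjusted p = 0.126), and without MS8815-N replicate 2 the interval was -2.29 to -1.20 (adjusted p = 0.0197). FOXM1 had 799 and 440 with EPZ-6438 and 571 and 112 with MS8815-N. It differed from EPZ-6438 by -1.36 (-3.06 to 0.33, limma adjusted p = 0.75), or with an interval of -2.15 to -0.57 without MS8815-N replicate 2 (adjusted p = 0.073). From MS8815-N it differed by -0.14 (-1.83 to 1.55), and by -1.31 (-2.28 to -0.34, limma adjusted p = 0.166) without that library. EZH2 was listed at 0 in MS8815-N replicate 2 and had 156 in replicate 1 and 163 and 176 with EPZ-6438. Its difference from EPZ-6438 was -0.52 (-1.28 to 0.25, limma adjusted p = 0.378) without MS8815-N replicate 2. SUZ12 differed from EPZ-6438 by -0.007 (-0.705 to 0.691).

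**Figure D5:**
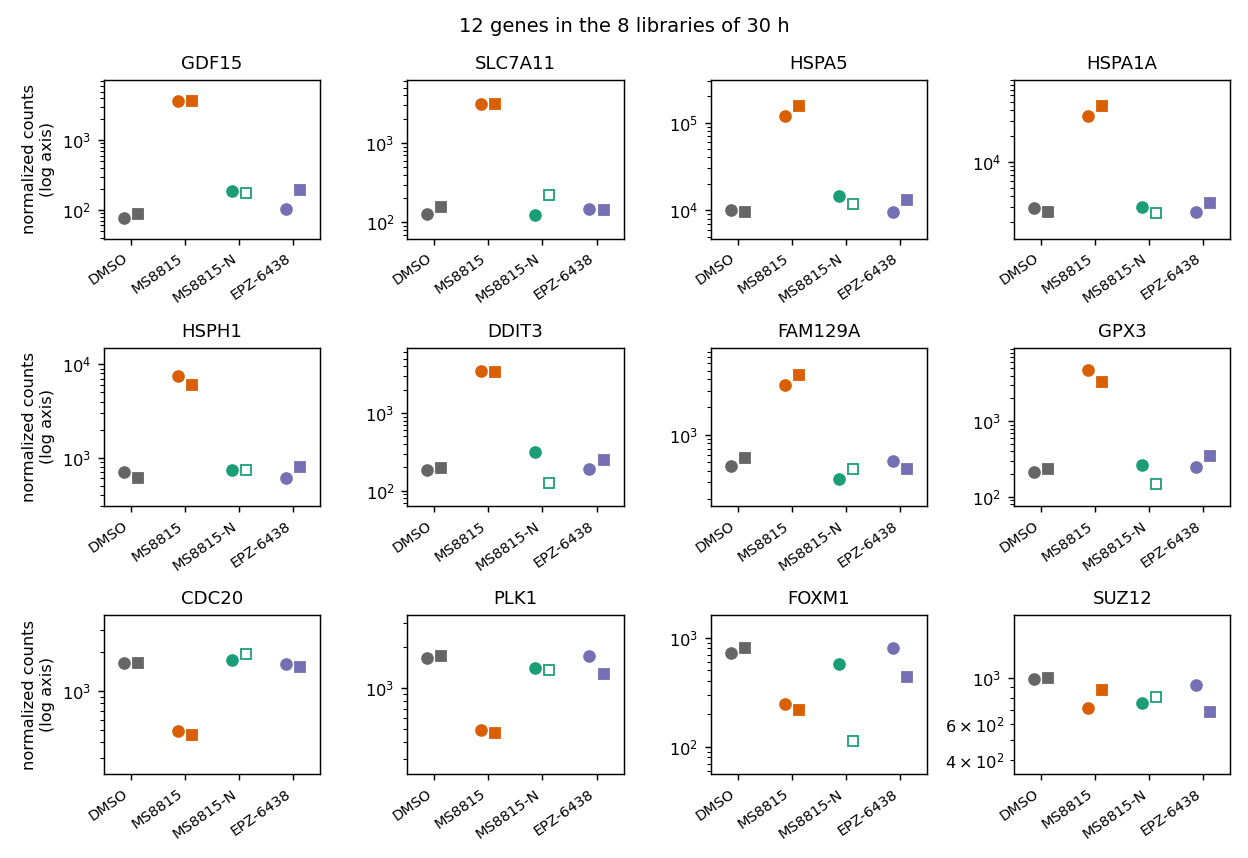
Normalized counts (log axis, tables joined through DMSO) of 12 genes in the 8 libraries of 30 h, circles for the lower and squares for the higher replicate number, with the open square for MS8815-N replicate 2. Stress genes are high and CDC20 and PLK1 low with MS8815 alone among the 4 treatments, while the groups lie closer together for SUZ12.

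MS177, another EZH2-directed PROTAC, was given to T47D-TR at 2.5 uM for 48 h in the same series, with 0.125% DMSO as vehicle. Times and vehicles differ, so values are set side by side without a comparison. GDF15 was 44.9-fold higher than vehicle with MS8815 and 34.2-fold higher with MS177. DDIT3 was 17.9-fold and 27.2-fold higher, and HSPA5 13.9-fold and 8.09-fold higher. HSPA1A was 14.5-fold higher with MS8815 and 1.67-fold lower with MS177 (8967 and 8434, then 4915 and 5482). HMOX1 was 52.1-fold and 7.02-fold higher, FTL 10.7-fold and 1.85-fold higher, and PSMB4 2.97-fold and 1.23-fold higher. On the falling side FOXM1 was 3.32-fold lower with MS8815 and 6.27-fold lower with MS177, RRM2 3.66-fold and 25.1-fold lower, and IGFBP5 4.27-fold and 26.6-fold lower. EZH2 was 1.38-fold lower with MS8815, which did not pass the test, and 1.45-fold higher with MS177.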

How the data were processed

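The authors deposited log2 values, 1 table per compound with its DMSO libraries. The submitters' processing notes name RSEM and DESeq, without versions, and the genome build hg38. These log2 values were taken as variance-stabilised, and normalized counts were recovered as q = (2^v - 2 m)2/2^v, v being the deposited log2 value and m the lowest of the table. As a check, DMSO libraries present in several tables moved between them by 1 factor per gene (largest log2 departure 1.8e-13 over 11616 genes). Whole reads were not recovered, so depth is unknown and no counting interval is given. Whether counting used strand is not given in the sources used here.

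MS8815 was compared with DMSO by limma 3.58.1 (R 4.3.3) (trend and robust options) on deposited log2 values. Genes needed at least 10 normalized counts in 2 libraries. Tests were two-sided, with Benjamini-Hochberg adjustment over all tested genes and a threshold of 0.05. Compounds were compared on log2(normalized count + 1). Genes of the 32 lists and 4 marker lists were chosen with earlier results of these data known. Named by rule were EZH2, EZH1, EED, SUZ12, FOXM1 and MYC, the 12 largest rises and falls past the threshold, with both MS8815 libraries beyond both DMSO libraries and a mean of at least 50 in the higher group, up to 4 called members of each list (or up to 2 where none passed), and the 5 largest differences between compounds. Positions are those of GENCODE on hg38, and promoters those of RefSeq on GRCh38.p14, with chromosome 8 left out. The test was checked on simulated data in which both groups had the same spread. That check cannot speak to the unequal spread of the MS8815 and DMSO pairs. Of the genes the rule names, 2 are not reported here. Alternatives are given in the closing section.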

Additional observations from a re-analysis of the deposited data

How the results depend on the processing

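The number of genes called between MS8815 and DMSO was 676. It was 434 without a filter on low values, 104 with all 8 libraries of 30 h in 1 fit and 503 in the same fit without MS8815-N replicate 2 (an alternative chosen after seeing the data). Other scales, filters, scalings and variance models gave 545 to 999. Leaving out 1 replicate gave 9 to 7400, low where a DMSO library was left out and high where an MS8815 library was, the spread then coming from the other pair alone. For the further changes of these counts the cause was not tested. The contrast with MS8815-N gave 8 calls, 146 on deposited log2 values, 28 with only the 4 libraries compared and 24 with a replicate block. Leaving out 1 replicate gave 0 to 7764. The contrast with EPZ-6438 gave 15 calls, 84 on deposited log2 values, 99 with only the 4 libraries compared and 23 with a replicate block, and 0 to 558 without 1 replicate. Numbers did not pair the compound libraries, as deviations of like-numbered libraries correlated at 0.075, -0.352 and -0.09. No paired analysis was possible because MS8815 and DMSO share no replicate number. Among 110 named genes, those whose difference from DMSO changed sign had not passed the test. With voom COL1A1 was at -0.358 and EZH1 at -0.268. Over fits without 1 replicate, COL1A1 ran from -0.171 to 0.253, EED from -0.4 to 0.097, EZH1 from -0.166 to 0.366 and MYC from -0.039 to 1.002. Against MS8815-N, EZH2 ran from -0.396 (without MS8815-N replicate 2) to 6.896 (without replicate 1) and FOXM1 from -1.308 to 1.032 likewise. With 2 libraries a group, genes of low level or uneven replicates could differ without passing, and lists with no call are not shown to be unchanged.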

Other observations

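Families that the lists above did not hold were picked after the values had been seen, so their counts are descriptions. Metallothioneins, small proteins that bind zinc and copper, had 3 of 4 genes higher, beside 2.73% of all tested genes. MT1X had 185 and 161 normalized counts with DMSO and 3446 and 1919 with MS8815 (15.5-fold higher), and MT2A had 1143 and 1067 and then 13037 and 6066. MT1F was 8.48-fold higher. In MS8815-N replicate 1 and EPZ-6438 replicate 2 MT2A was at 2411 and 2532. Iron handling genes split: of 19 tested, 4 were higher and 2 lower, beside 2.73% and 2.30% of all tested genes. With HMOX1 and FTL rose BLVRB, a biliverdin reductase downstream of heme oxygenase (3.40-fold), and ABCB6, a mitochondrial porphyrin transporter (5.71-fold). With TFRC fell SLC40A1, the iron exporter ferroportin, from 7287 and 7322 to 2559 and 2903. Genes around the proteasome were called in 5 of 23, all higher, beside 2.73% of all tested genes higher. The called genes were SQSTM1, ZFAND2A, an arsenite-inducible proteasome-associated protein (170 and 172, then 3635 and 1657), ZFAND5, UFD1L and POMP, the proteasome maturation protein (3.05-fold). Of the 23 genes, 14 had both MS8815 libraries above both DMSO libraries and 5 had both below. Over all tested genes these shares were 30.2% and 31.7%. PSME1 and PSME2, subunits of the interferon-inducible proteasome activator and among those below, did not pass the test. PSME1 had 830 and 697 with DMSO and 632 and 305 with MS8815, and PSME2 had 509 and 433 and then 328 and 207.

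Genes of epidermal differentiation were called in 8 of 11 tested, all higher, beside 2.73% of all tested genes higher. Among the called genes KRT6A, KRT16, KRT75, SCEL and SPRR2D passed the filter only through MS8815 and could only be called higher. KRT6A, a keratin of activated epidermis, had 2.31 and 3.91 normalized counts with DMSO and 202 and 493 with MS8815. IVL, involucrin of the cornified envelope, had 31.8 and 27.0 and then 452 and 281. SPRR2D, a small proline-rich envelope protein, had 0.791 and 0.672 and then 211 and 208. SERPINB5, maspin, had 21.7 and 25.6 and then 305 and 706. S100A8, also an epidermal stress gene, had 24.9 and 15.4 and then 6.64 and 6.42 and did not pass. Of 15 X-linked cancer-testis genes tested, which are normally expressed in germ cells, 5 were higher, beside 2.73% of all tested genes. Of the 5, CT45A8, CT45A10 and SSX1 passed the filter only through MS8815 and could only be called higher. VCX3A had 130 and 109 and then 859 and 459, VCX had 47.1 and 61.0 and then 413 and 229, and SSX1 was listed at 0 in both DMSO libraries and had 14.4 and 11.6. MAGEA1, at 1186 and 1124 and then 909 and 723, and GAGE1, at 810 and 753 and then 601 and 559, did not pass. VCX and CT45 genes are near-identical copies, and how reads were divided among them is uncertain.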
